A study of Mus musculus with 6 samples.

Results

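Fragments of the selenocysteine tRNA (tRNA-SeC, anticodon TCA) were followed in smooth muscle cells of the mouse pulmonary artery, taken into primary culture. These cells contract and set the width of the vessels that carry blood to the lung. The fragments were the sequences whose every annotation in the deposited table begins with mature-tRNA-SeC, in each case mature-tRNA-SeC-TCA. They numbered 308 of 38798 tRNA-derived sequences, with 6605 counts in all, and 0 of them were also assigned to another tRNA. The 3 hypoxia libraries came from wild type cells held at 3% oxygen for 24 hours, and the 3 normoxia libraries from wild type cells grown in standard oxygen, each group being 3 biological replicates. All 6 libraries were made from TRIzol-extracted RNA by Pandora-seq, in which enzymes strip off RNA modifications that hinder the capture of small RNAs before cloning. The stated aim was to find tRNA-derived small RNAs that respond to hypoxia. The table holds tRNA-derived sequences alone, so the cell type and the oxygen treatment could not be checked against marker genes.

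tRNA-SeC reads the codon UGA, elsewhere a stop signal, as selenocysteine, the selenium-containing amino acid of glutathione peroxidases, thioredoxin reductases and the other selenoproteins. It is first charged with serine by seryl-tRNA synthetase, which also charges the serine tRNAs, and the serine is then converted on the tRNA to selenocysteine by the enzymes PSTK and SEPSECS. It has a long variable arm, as serine and leucine tRNAs do, and a T stem shorter than that of other tRNAs, and its wobble uridine, the first anticodon base, carries a modification completed by the methyltransferase ALKBH8.

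The 308 fragments overlap, and 11 joining steps over shared stretches of 29 to 43 nt gave 1 mature tRNA of 87 nt that contains every one of them at 1 place each. With the CCA tail that is added after transcription it would be 90 nt long. Positions are counted from 1 at its 5′ end, and the gene's place in the genome is not given here. The anticodon lies at positions 36 to 38, in a loop at 34 to 40 that is closed by a stem of 5 pairs. The variable arm has its loop at 53 to 56, and the T arm has a stem of 4 pairs and its loop at 67 to 73. Positions 1 to 7 pair with 80 to 86 in the acceptor stem, which was followed only up to its first mismatch and may be longer. The whole joined tRNA is shown first, followed by the fragments on which the results turn, each named by its first and last position. They are written 5′ to 3′ as DNA, with bases of the anticodon in capitals.
joined tRNA-SeC 1-87: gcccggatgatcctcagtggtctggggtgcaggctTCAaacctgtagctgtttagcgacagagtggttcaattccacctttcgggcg
SeC 38-53: Aaacctgtagctgttt
SeC 38-52: Aaacctgtagctgtt
SeC 37-52: CAaacctgtagctgtt
SeC 36-52: TCAaacctgtagctgtt
SeC 35-52: tTCAaacctgtagctgtt
SeC 54-69: agcgacagagtggttc
SeC 70-84: aattccacctttcgg
SeC 60-87: agagtggttcaattccacctttcgggcg
SeC 1-17: gcccggatgatcctcag
SeC 15-29: cagtggtctggggtg
SeC 16-30: agtggtctggggtgc

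These 11 fragments show the pieces into which the tRNA falls in the table. The first 5 begin in the anticodon loop, run through the 3′ side of the anticodon stem and the 5′ side of the variable arm's stem, and stop where the variable arm's loop begins. They differ from each other by 1 to 3 bases at the start or by 1 base at the end. SeC 54-69 starts on the base after the last base of SeC 38-53 and crosses the variable arm into the T loop. SeC 70-84 starts in turn on the base after the end of SeC 54-69. SeC 1-17 is the 5′ end, and SeC 15-29 and SeC 16-30 start just before its last base and stop ahead of the anticodon. Fragments that share bases are not separate signals, and they are not replicates of a condition.

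The libraries differed widely in depth. Hypoxia libraries 1, 2 and 3 held 571, 1454 and 1138 tRNA-SeC counts among 510519, 2563749 and 1713960 tRNA-derived counts, and normoxia libraries 1, 2 and 3 held 465, 1772 and 1205 among 330787, 2217965 and 1629726. In the shallowest library, normoxia 1, a single count equalled 3.02 CPM, counts per 1000000 of all tRNA-derived counts in the library. The libraries numbered 1 stood apart from the other 4 in both groups, and values without them stand beside the results they touch. A fit with the replicate number as a block was also made. Whether numbers 2 and 3 pair libraries across the groups was not established.

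Fragments of tRNA-SeC were rare, and their summed level did not pass the test between the groups. They had 1118, 567.1 and 664.0 CPM in hypoxia libraries 1, 2 and 3, against 1406, 798.9 and 739.4 CPM in normoxia libraries 1, 2 and 3. Each hypoxia library lay below the normoxia library of its number, by ratios of 0.796, 0.710 and 0.898. Both libraries numbered 1 were high, and the groups overlapped because hypoxia 1 lay above normoxia 2 and 3. The means were 783.2 ± 294 CPM in hypoxia and 981.4 ± 369 CPM in normoxia (SD, n = 3 each), and the two-sided exact permutation test gave p = 0.5, where 3 libraries against 3 cannot go below 0.1. Of all 73 tRNA families, tRNA-SeC included, 26% had the lower value in hypoxia in each of the 3 pairs, and the groups did not overlap for 4.11%. By mean level tRNA-SeC ranked 62 of the 73 families and 49 of the 51 nuclear ones, where the families below it were those annotated as suppressor tRNAs.

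**Figure D1:**
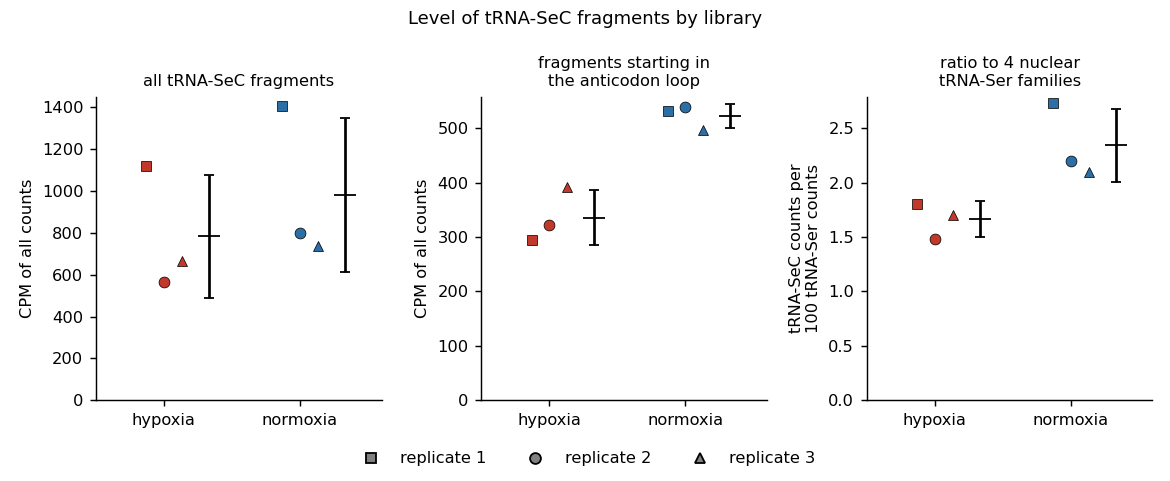
Levels of tRNA-SeC fragments in each library, hypoxia left of normoxia: all fragments and those starting in the anticodon loop in CPM of all counts, and tRNA-SeC counts per 100 counts of the 4 nuclear tRNA-Ser families. Points are libraries with their replicate number as the symbol, and the bar beside them is the mean ± SD (n = 3). The groups overlap in the first panel, with 1118 CPM in hypoxia 1 above 739.4 CPM in normoxia 3, and do not overlap in the other panels.

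The edgeR quasi-likelihood fit over the 73 family sums put the log2 change at -0.35 (SE 0.24, 95% interval -0.93 to 0.22, Benjamini-Hochberg adjusted p = 0.996). In that fit 0% of families were called in either direction, and below an unadjusted p of 0.05 there were 0 higher and 2 lower. With the replicate block the change was -0.36 (SE 0.18, 95% interval -0.76 to 0.04, adjusted p = 0.264), where 0% of families were called higher and 4.11% lower, and with replicates 2 and 3 alone it was -0.34. The choice of scaling mattered to the value, since DESeq2 size factors gave -0.18. In the fit with the block it also moved the calls, with 3 families higher and 1 lower under DESeq2 size factors, against 0 higher and 3 lower under the trimmed-mean scaling of edgeR (TMM), tRNA-SeC being in none of them. The median family moved with the scaling, from -0.07 under TMM to 0.11 under DESeq2 size factors. Relative to it, tRNA-SeC lay at -0.29 under TMM and at -0.30 under DESeq2 size factors. A p-value that misses the threshold does not show that the level was the same, and the intervals above give the range left by 3 libraries per group.

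The serine tRNAs share their synthetase with tRNA-SeC and offer a comparison within each library. Over the 1903 sequences of nuclear tRNA-Ser-AGA, Ser-CGA, Ser-GCT and Ser-TGA, each counted once and with the rarer nuclear Ser-GGA left out, there were 1.805, 1.479 and 1.703 tRNA-SeC counts per 100 tRNA-Ser counts in hypoxia libraries 1, 2 and 3, against 2.726, 2.197 and 2.098 in normoxia libraries 1, 2 and 3. The highest hypoxia library lay below the lowest normoxia library. The means were 1.66 ± 0.167 in hypoxia and 2.34 ± 0.338 in normoxia (SD, n = 3 each, two-sided exact permutation p = 0.1, the smallest possible). Among sequences of 18 nt or more the difference of the means was -0.406 with exact p = 0.4, next to -0.678 at all lengths. Set against the same tRNA-Ser counts, 8.82% of the 68 families other than these 4 and tRNA-SeC lay wholly lower in hypoxia, and 11.8% did not overlap in either direction. The tRNA-Ser counts themselves had ratios of hypoxia to normoxia CPM of 1.202, 1.054 and 1.106 in pairs 1, 2 and 3. Those of tRNA-SeC were 0.796, 0.710 and 0.898, so a higher denominator and a lower numerator both enter the difference in each pair. In the family fit the 4 tRNA-Ser families had log2 changes of 0.08 to 0.21, and 0 of 4 were called. Of the 5 other nuclear families whose wobble uridine ALKBH8 acts on, Arg-TCT, Glu-TTC, Gln-TTG, Gly-TCC and Lys-TTT, 0 were called, with log2 changes of -0.26 to 0.15. Sequences of Ser-AGA and Ser-TGA are largely shared between them, so they are not separate readings.

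Most tRNA-SeC counts came from inside the tRNA. The table's classes put 272 of the 308 sequences and 87.3% of counts in the internal class, 18 sequences and 8.71% of counts in 5′ ends, and 18 sequences and 3.95% of counts in 3′ ends that lack the CCA tail. Fragments with a full CCA tail had 0 counts, which allows a share of up to 0.0454% (3 of 6605 counts, counting error only). The sources used here do not say whether the tRNA-SeC sequence the authors matched to includes the tail, so this 0 may not be a measurement of tailed fragments. Among the 48 other nuclear families, with the suppressor tRNA families left out here and below, 5 also had 0 counts with CCA, namely Asp-GTC, Gly-ACC, Ser-AGA, Ser-TGA and Trp-CCA.

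Pooled fragments of the 4 nuclear tRNA-Ser families had the opposite make-up. Ser-AGA and Ser-TGA, whose sequences are largely shared, dominate that pool, with mean levels of 35330 and 35732 CPM. Ser-GCT had 6369 CPM and Ser-CGA 1294 CPM, and class shares of the single serine families are not shown. In tRNA-SeC the internal share was 75.5%, 87.3% and 87.8% in hypoxia libraries 1, 2 and 3 and 86.5%, 90.6% and 88.1% in normoxia libraries 1, 2 and 3. Across the same 6 libraries the 4 tRNA-Ser families together had 4.46% to 28.6% internal and 65.2% to 94.6% 5′ end counts. The internal share was higher in tRNA-SeC in 6 of 6 libraries, by 73.6 percentage points on average, and the 5′ end share was lower in 6 of 6 libraries, with a mean difference of -76.6 points (two-sided exact sign-flip permutation p = 0.03125 for each, the smallest that 6 libraries allow, and 0.03125 adjusted over the 4 classes). Same-numbered libraries may not be independent, and over 3 pairs such a test cannot go below 0.25. The internal share of tRNA-SeC exceeded that of 43 of the 48 other nuclear families. Within tRNA-SeC the class shares of hypoxia and normoxia overlapped at all lengths. Internal counts averaged 83.5 ± 6.98% in hypoxia and 88.4 ± 2.07% in normoxia (exact p = 0.4), 5′ ends 7.93 ± 4.54% in hypoxia and 7.56 ± 3.29% in normoxia (exact p = 0.9), and 3′ ends 8.53 ± 11.4% in hypoxia and 4.05 ± 4.52% in normoxia (exact p = 0.6; SD, n = 3 each, all 0.9 adjusted over the 3 classes). The internal difference of -4.85 percentage points was -0.821 without hypoxia 1. Among sequences of 18 nt or more it was -7.997 with exact p = 0.1, the smallest possible.

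**Figure D2:**
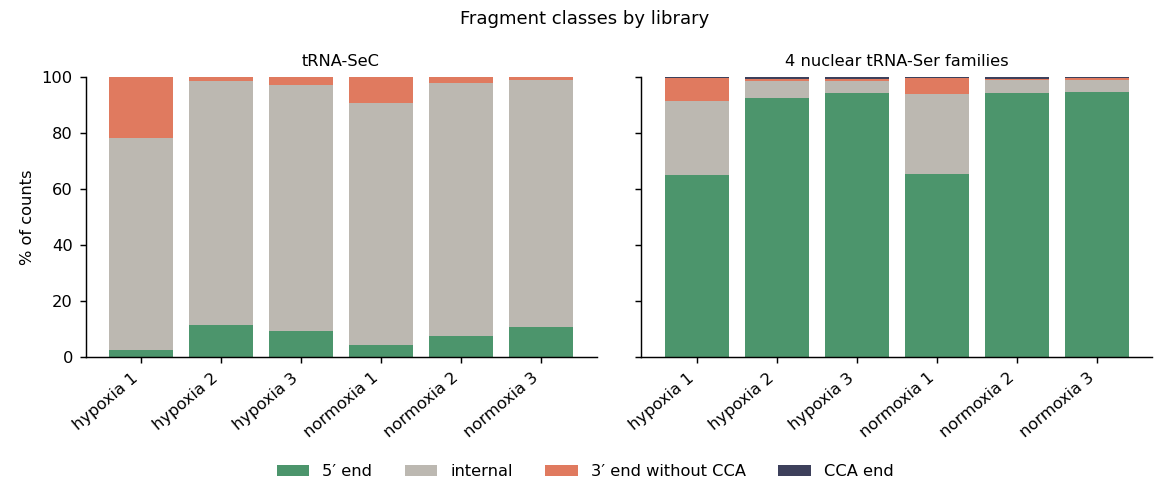
Share of counts in each fragment class, in percent of the counts of tRNA-SeC (left) and of 4 nuclear tRNA-Ser families (right), with 1 stacked bar per library. Internal fragments fill 75.5% to 90.6% of tRNA-SeC, and 5′ ends fill 65.2% to 94.6% of the pooled tRNA-Ser counts.

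The 3′ share rested on the libraries numbered 1. It was 21.7% in hypoxia 1 and 9.25% in normoxia 1, against 1.24% and 2.64% in hypoxia 2 and 3 and 1.92% and 0.996% in normoxia 2 and 3. As a sum over 3′ ends the edgeR log2 change was 0.70 (SE 1.30) with all libraries, -1.21 (SE 1.14) without hypoxia 1 and 0.02 with replicates 2 and 3 alone, and with the replicate block it was 0.32 (SE 0.57). The internal sum had a log2 change of -0.44 (SE 0.34, 95% interval -1.26 to 0.38), -0.45 with the replicate block (SE 0.20, adjusted p = 0.349) and -0.39 with replicates 2 and 3 alone (adjusted p = 0.195). The 5′ end sum had a log2 change of -0.28 (SE 0.75). These 3 sums all had an adjusted p of 0.996 among 240 sums of family and class, of which 0% were called in either direction. Below an unadjusted p of 0.05 there were 2 higher and 2 lower sums.

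**Figure D3:**
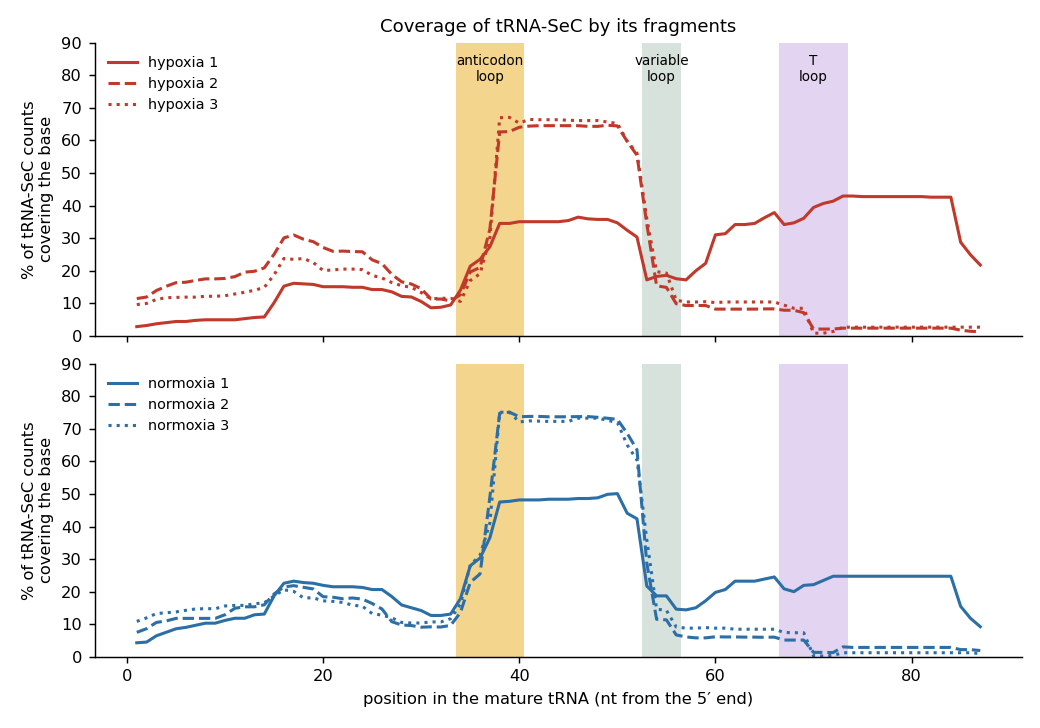
Percent of each library's tRNA-SeC counts that cover each base, by position in the mature tRNA in nt, with hypoxia above and normoxia below. Coverage steps up inside the anticodon loop and down at the variable loop, with base 38 covered by 34.5% to 67.0% of counts in hypoxia and 47.5% to 75.1% in normoxia, while the libraries numbered 1 have a further plateau after the T loop. At base 74 coverage is 42.9% in hypoxia 1, above its 34.5% at base 38, and 24.7% in normoxia 1.

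Coverage of the tRNA had sharp edges. At base 36, the first anticodon base, it was 23.5%, 21.0% and 19.1% of counts in hypoxia libraries 1, 2 and 3 and 30.3%, 25.5% and 31.2% in normoxia libraries 1, 2 and 3. At base 38, the last anticodon base, it was 34.5%, 62.6% and 67.0% in hypoxia and 47.5%, 74.8% and 75.1% in normoxia. At base 36 the hypoxia libraries lay below all normoxia libraries. At base 38 both libraries numbered 1 were low, and the groups overlapped because normoxia 1 lay below hypoxia 2 and 3. Past base 52 it dropped within 2 bases, to 18.2%, 15.3% and 19.7% at base 54 in hypoxia libraries and to 18.7%, 11.5% and 14.6% in normoxia libraries.

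Over the 6 libraries together, fragments starting in the anticodon loop were the most abundant group, with 43 sequences and 3825 counts. In hypoxia 1 fragments that lie after the anticodon took more, 54.8% of tRNA-SeC counts. The level of fragments starting in the loop was 293.8, 321.4 and 391.5 CPM in hypoxia libraries 1, 2 and 3. In normoxia libraries 1, 2 and 3 it was 532.1, 538.8 and 496.4 CPM. The groups did not overlap, each hypoxia library lying below each normoxia library. The means were 335.6 ± 50.4 CPM in hypoxia and 522.4 ± 22.8 CPM in normoxia (SD, n = 3 each, exact p = 0.1, the smallest possible, and 0.6 adjusted over 18 stretches of the tRNA). Most of this difference lay in the shortest fragments: among sequences of 18 nt or more it was -57.4 CPM (exact p = 0.3), next to -186.8 CPM at all lengths. As a share of tRNA-SeC counts they made up 26.3%, 56.7% and 59.0% in hypoxia and 37.8%, 67.4% and 67.1% in normoxia, with overlap (exact p = 0.5). The stretches compared here and below were chosen after their values were seen.

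Within the loop the groups did not overlap at the first 4 bases as a set, and they overlapped at the last anticodon base. Whether these starts differ from each other in their response was not tested. Fragments starting at bases 34 to 37 held 18.6%, 23.0% and 21.4% of tRNA-SeC counts in hypoxia libraries 1, 2 and 3, against 25.4%, 39.6% and 30.6% in normoxia libraries 1, 2 and 3, without overlap (exact p = 0.1, 0.6 adjusted). The difference of -10.9 percentage points was -7.01 without normoxia 2 and -12.9 with replicates 2 and 3 alone. Within this set, starts at base 37 overlapped, at 3.85%, 11.8% and 10.98% in hypoxia and 6.24%, 23.6% and 9.88% in normoxia, and so did starts at base 34. Those starting at base 38, the commonest start with 1855 counts, held 7.18%, 30.6% and 36.99% in hypoxia and 11.8%, 26.3% and 35.4% in normoxia (exact p = 1.0). Low values at this start came from the libraries numbered 1 in both groups. Starts at base 35 held 7.53%, 7.22% and 6.42% in hypoxia against 10.3%, 9.26% and 12.9% in normoxia, without overlap (exact p = 0.1, 0.275 adjusted over the 11 start positions with at least 100 counts). Fragments holding the whole anticodon, wherever they started, made up 23.5%, 20.2% and 19.0% of counts in hypoxia and 29.5%, 24.9% and 29.8% in normoxia, again without overlap (exact p = 0.1, 0.6 adjusted). Among sequences of 18 nt or more that difference was -13.2 percentage points, next to -7.18 at all lengths, both with exact p = 0.1. Among sequences of at least 10 counts it was -8.40 percentage points with exact p = 0.2. In CPM the fragments holding the whole anticodon overlapped. They had 262.5, 114.7 and 126.0 CPM in hypoxia and 414.2, 199.3 and 220.3 CPM in normoxia (exact p = 0.3, 0.771 adjusted).

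The individual fragments of this group had few counts in the libraries numbered 1, and none passed the test. SeC 38-53, the most abundant tRNA-SeC sequence, had 14, 263 and 207 counts in hypoxia libraries 1, 2 and 3 and 14, 257 and 233 in normoxia libraries 1, 2 and 3. That is 83.6 ± 49.5 CPM in hypoxia and 100.4 ± 52.1 CPM in normoxia (SD, n = 3 each), a log2 change of -0.28 (SE 0.88). The spread came from the libraries numbered 1, which held few copies in both groups. SeC 38-52, shorter by its last base, had 25, 156 and 144 counts in hypoxia, against 32, 169 and 162 in normoxia (64.6 ± 17.8 CPM in hypoxia and 90.8 ± 12.7 CPM in normoxia, log2 -0.44, SE 0.60), and the log2 change ran from -0.83 to -0.11 as each library was left out, nearest to 0 without normoxia 3 and at -0.14 without hypoxia 1. Its hypoxia library 3, at 84.02 CPM, lay above normoxia library 2, at 76.2 CPM, so these groups overlapped too. SeC 37-52 had 15, 82 and 69 counts in hypoxia, against 19, 320 and 22 in normoxia, a log2 change of -1.10 (SE 0.90). Here normoxia library 2 decided the direction, and without it the log2 change was 0.55. With the replicate block it was -0.61 (SE 0.59).

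The forms that start at bases 34 to 36 and keep the whole anticodon did not pass either. Their 8 tested members had log2 changes of -1.95 to -0.43, a range that overlaps the -1.10 to -0.10 of those starting at bases 37 and 38. SeC 35-52 had 27, 28 and 37 counts in hypoxia libraries 1, 2 and 3 and 34, 88 and 80 in normoxia libraries 1, 2 and 3, which is 28.5 ± 21.8 CPM in hypoxia against 63.8 ± 34.05 CPM in normoxia (SD, n = 3 each). It was lower in hypoxia in all 3 pairs while the groups overlapped, with a log2 change of -1.21 (SE 0.67) and, with the replicate block, -1.34 (SE 0.48, edgeR adjusted p = 0.502). SeC 36-52, which begins on the first anticodon base, had 2, 8 and 5 counts in hypoxia, against 6, 26 and 17 in normoxia. All hypoxia libraries, at 3.92, 3.12 and 2.92 CPM, lay below all normoxia libraries, at 18.1, 11.7 and 10.4 CPM. Its log2 change was -1.95 (SE 0.75, 95% interval -3.68 to -0.21), with an unadjusted edgeR p of 0.0322 and an adjusted p of 1.0, and it ran from -2.04 to -1.80 as each library was left out. With the replicate block the log2 change was also -1.95, with a larger SE of 1.03 and an unadjusted edgeR p of 0.0696. SeC 36-52 was named for the smallest p among the fragments tested, a choice that favours large values.

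**Figure D4:**
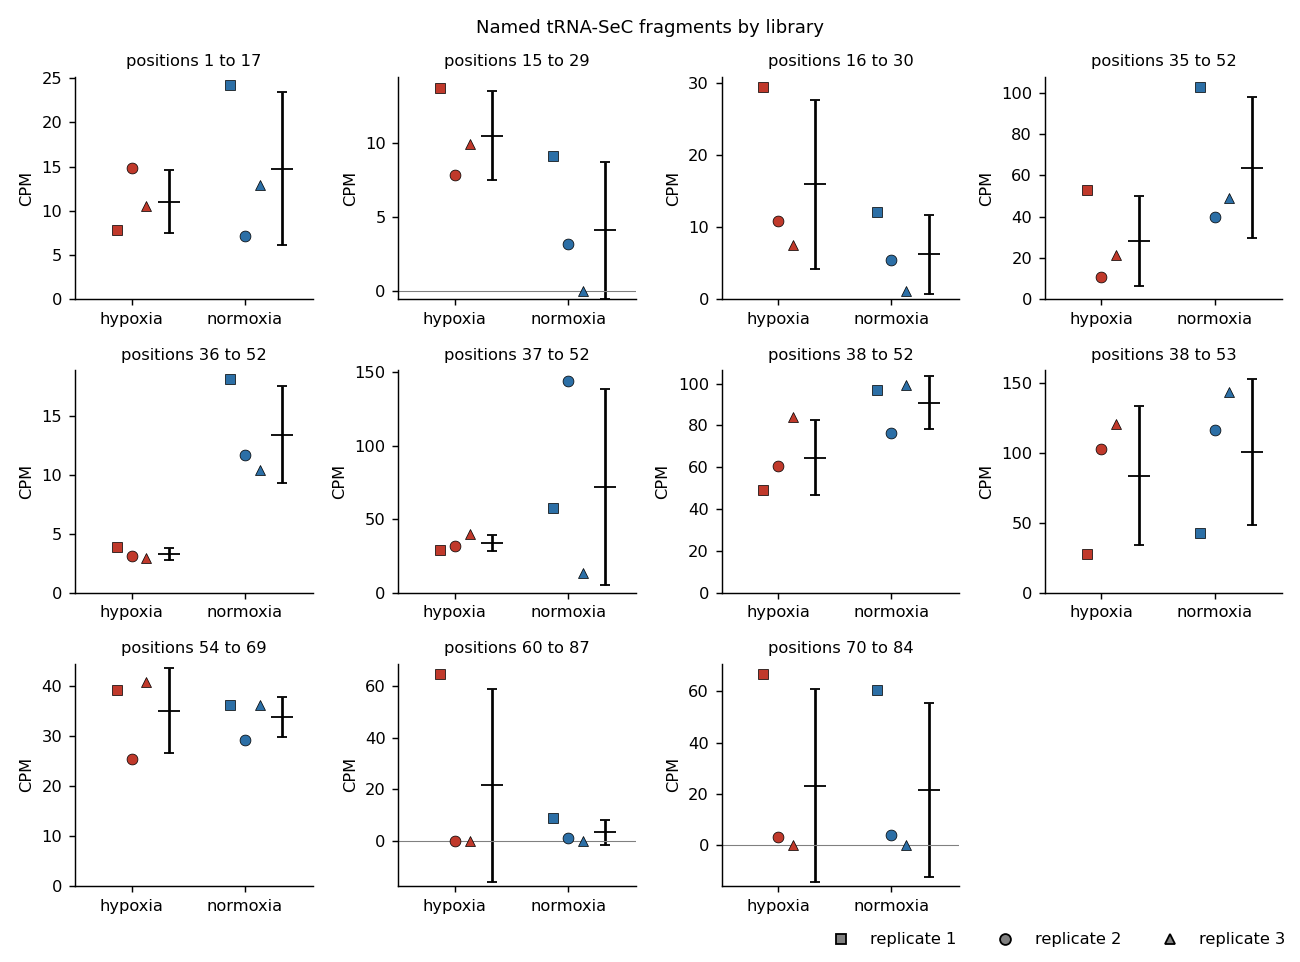
The 11 named fragments in each library, in CPM of all counts, hypoxia left of normoxia, each panel with its own axis. Points are libraries with their replicate number as the symbol and bars beside them are the mean ± SD (n = 3), which run below 0 where 1 library holds most counts. The groups do not overlap for positions 36 to 52. Positions 70 to 84 rest on the libraries numbered 1, and positions 60 to 87 rest on hypoxia 1.

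Ahead of the anticodon stem 4 start positions had at least 100 counts, at bases 1, 3, 15 and 16, and of these base 16 was the one where the groups did not overlap. Starts at base 16 held 5.25%, 6.46% and 5.01% of tRNA-SeC counts in hypoxia libraries 1, 2 and 3, against 4.52%, 2.14% and 1.99% in normoxia libraries 1, 2 and 3. The hypoxia libraries were all higher than the normoxia libraries (exact p = 0.1, 0.275 adjusted over the 11 positions), while among sequences of 18 nt or more exact p was 0.3. Starts at base 15 overlapped, at 4.15 ± 0.259% in hypoxia and 3.67 ± 1.78% in normoxia (exact p = 0.7), and so did all fragments that lie before the anticodon, at 17.97 ± 6.88% in hypoxia and 14.6 ± 1.62% in normoxia (exact p = 0.5). Of the starts at base 15 or 16, fragments that end before the anticodon held 4.55%, 5.36% and 6.33% in hypoxia and 3.66%, 1.92% and 1.41% in normoxia, also without overlap (exact p = 0.1, 0.6 adjusted). In CPM these fragments overlapped, at 50.9, 30.4 and 42.0 CPM in hypoxia and 51.4, 15.3 and 10.4 CPM in normoxia (exact p = 0.4). Fragments with the same starts that run past the anticodon had overlapping shares, 4.29 ± 1.51% in hypoxia and 4.04 ± 1.76% in normoxia (exact p = 1.0).

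SeC 16-30 and SeC 15-29 were the most abundant fragments of this stretch. SeC 16-30 had 15, 28 and 13 counts in hypoxia libraries 1, 2 and 3 and 4, 12 and 2 in normoxia libraries 1, 2 and 3, or 15.96 ± 11.7 CPM in hypoxia and 6.24 ± 5.48 CPM in normoxia (SD, n = 3 each). It was higher in hypoxia in 3 of 3 pairs, with a log2 change of 1.43 (SE 0.91, 95% interval -0.67 to 3.53). SeC 15-29 had 7, 20 and 17 counts in hypoxia, against 3, 7 and 0 in normoxia, or 10.5 ± 2.99 CPM in hypoxia and 4.08 ± 4.60 CPM in normoxia, with a log2 change of 1.71 (SE 1.19, 95% interval -1.05 to 4.47). Both are shifted copies of one stretch, differing by a base at each end, and neither passed the test.

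At the 5′ end itself the counts were spread over 18 sequences that all start at base 1. SeC 1-17, the one with the highest mean CPM, had 4, 38 and 18 counts in hypoxia libraries 1, 2 and 3 and 8, 16 and 21 in normoxia libraries 1, 2 and 3. Its level was 11.05 ± 3.53 CPM in hypoxia and 14.8 ± 8.64 CPM in normoxia (SD, n = 3 each, log2 -0.20, SE 0.75), with overlap. The mean length of 5′ ends was 20.6, 20.9 and 21.9 nt in hypoxia, against 22.1, 23.1 and 26.2 nt in normoxia, without overlap (exact p = 0.1, 0.8 adjusted over 8 measures of length). The difference of the means was -2.66 nt with all libraries and -1.45 nt without normoxia 3. Long 5′ ends that reach into the anticodon loop, the kind that a cut in that loop leaves, were few. They had 1, 7 and 8 counts in hypoxia, against 1, 21 and 40 in normoxia, or 1.96, 2.73 and 4.67 CPM in hypoxia against 3.02, 9.47 and 24.5 CPM in normoxia (exact p = 0.2). Their lower counts in hypoxia libraries 2 and 3 stand beside the shorter mean, and their part in it was not tested.

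The 3′ part of the tRNA was represented by fragments of the variable and T arms and by 3′ ends. SeC 54-69 was present in every library, with 20, 65 and 70 counts in hypoxia libraries 1, 2 and 3 and 12, 65 and 59 in normoxia libraries 1, 2 and 3. Its levels of 35.1 ± 8.50 CPM in hypoxia and 33.9 ± 4.003 CPM in normoxia differed by less than the spread between libraries (SD, n = 3 each, log2 0.03, SE 0.60, 95% interval -1.37 to 1.43). As a share of tRNA-SeC counts, starts at base 54 held 5.08%, 5.64% and 6.15% in hypoxia against 2.58%, 3.73% and 4.90% in normoxia, without overlap (exact p = 0.1, 0.275 adjusted), and among sequences of 18 nt or more exact p was 0.4. That share covers 5 sequences, with 29, 82 and 70 counts in hypoxia libraries 1, 2 and 3 and 12, 66 and 59 in normoxia libraries 1, 2 and 3. Each hypoxia library was deeper than the normoxia library of its number. The CPM of SeC 54-69 covers 1 of these sequences, and the CPM of all 5 is not given here. The summed tRNA-SeC CPM was lower in each hypoxia library of a pair, and its part in the share was not tested.

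The libraries numbered 1 held fragments that were scarce in the others. SeC 70-84 had 34, 8 and 0 counts in hypoxia libraries 1, 2 and 3 and 20, 9 and 0 in normoxia libraries 1, 2 and 3. That is 66.6, 3.12 and 0 CPM in hypoxia and 60.5, 4.06 and 0 CPM in normoxia, high in both libraries numbered 1. SeC 60-87, the 3′ end with the highest mean CPM, had 33, 0 and 0 counts in hypoxia, against 3, 3 and 0 in normoxia, so it rested on hypoxia 1. Neither passed the filter on low counts, so neither has a fold change or a test. Fragments starting at base 60 or 70 together took 19.96% of tRNA-SeC counts in hypoxia 1 and 9.46% in normoxia 1, against 0.963% and 0.351% in hypoxia 2 and 3 and 0.847% and 0.083% in normoxia 2 and 3. Both groups show the same split by replicate number.

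tRNA-SeC fragments were short. Those of 15 to 17 nt held 45.5%, 67.8% and 67.9% of counts in hypoxia libraries 1, 2 and 3 and 48.4%, 69.8% and 65.4% in normoxia libraries 1, 2 and 3, and no sequence in the table was under 15 nt. Whether sequences this short also match the genome outside tRNA genes was not checked, and the assignment is that of the deposited table. The mean length was 21.1, 19.1 and 18.2 nt in hypoxia and 20.7, 18.5 and 18.7 nt in normoxia (19.5 ± 1.45 nt in hypoxia and 19.3 ± 1.21 nt in normoxia, SD, n = 3 each, exact p = 0.8). Fragments of at least 30 nt took 12.96%, 10.4% and 6.94% in hypoxia and 13.3%, 6.88% and 8.30% in normoxia. Length thus split by replicate number in the same way as the 3′ part did, with the longest means in the libraries numbered 1.

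Few of the 308 sequences carried enough counts for a test. Of all members 81 had a single count, 136 were seen in 1 library and 29 in all 6, and the 12 with at least 100 counts held 56.4% of the total. In hypoxia libraries alone 91 were seen, the largest with 15 counts in all, and in normoxia libraries alone 68 were seen, the largest with 21. These numbers were not set against those over all sequences, and each hypoxia library was deeper than the normoxia library of its number. They are therefore not read as a difference between the groups. Hypoxia libraries 1, 2 and 3 held 143, 135 and 105 distinct tRNA-SeC sequences and normoxia libraries 1, 2 and 3 held 133, 117 and 103. The filter on low counts left 25 members for the test, 21 internal, 3 at the 5′ end and 1 at the 3′ end, and these held 67.9% of tRNA-SeC counts. The other 283 were not tested.

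Of the 25 tested members, edgeR called 0 at an adjusted p of 0.05, as it called 0% of all 6452 tested sequences in either direction. Below an unadjusted p of 0.05 it found 0 higher and 1 lower member, beside 0.279% of all sequences higher and 0.418% lower. DESeq2 and limma voom called 0 as well, with 0 higher and 1 lower member by DESeq2 and 0 higher and 2 lower by voom below an unadjusted p of 0.05. With the replicate block edgeR called 0 members, and 0.0775% of all sequences in each direction. Below an unadjusted p of 0.05 that fit had 0 higher and 1 lower member, beside 3.41% of all sequences higher and 2.98% lower. That member was SeC 35-52, while in the fit without the block it was SeC 36-52. The log2 changes ran from -1.95 to 1.71 with SE of 0.60 to 1.47.

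By direction, 18 of the 25 lay below 0 and 7 above, with a median of -0.43, while 48.7% of all tested sequences lay below 0 with a median of 0.02. All 14 tested members that start at bases 34 to 38 had a log2 change below 0, from -1.95 to -0.10. All 3 that start at base 15 or 16 and end by base 30 had one above 0, from 1.14 to 1.71. Tested members just outside these cuts went the other way. SeC 15-50, which starts at base 15 and runs past the anticodon, had -1.20 (SE 1.47). SeC 40-55, which starts on the last base of the anticodon loop, had 0.14 (SE 0.95). Members of these sets overlap one another and repeat a small number of ends, so the counts are no measure of separate changes. The groups did not overlap in CPM for 2 members, SeC 36-52 and SeC 37-51, both lower in hypoxia, next to 4.84% of all tested sequences in either direction. In all 3 pairs 8 members were lower in hypoxia and 3 were higher, where 13.4% of all tested sequences were lower and 15% higher.

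**Figure D5:**
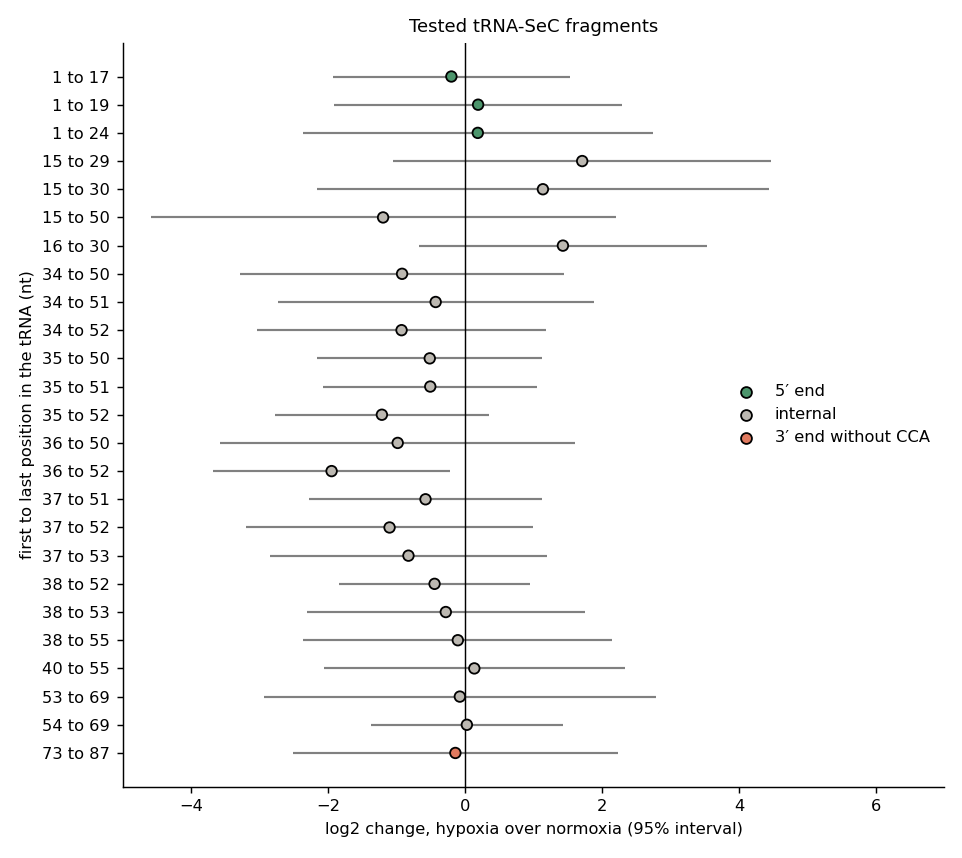
log2 change of hypoxia over normoxia from edgeR for the 25 tested tRNA-SeC fragments, ordered by their first and last position in nt, with 95% intervals and the fragment class as colour. The 14 fragments starting at 34 to 38 lie left of 0, and the 3 that start at 15 or 16 and end by 30 lie right of it. Positions 15 to 50 lie left of 0, and positions 40 to 55 lie right of it. The interval of 1 fragment, for positions 36 to 52, leaves out 0.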

How the data were processed

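The deposited values are raw counts per sequence in each library, with no normalization by the authors, per the file headers and the whole numbers in it. Build mm10 is named in the submitters' processing notes. The sources used here name no aligner or annotation tool. Groups and replicate numbers come from the sample titles. The members, the lists and the rule for named fragments were chosen with earlier results of these data known. The rule took fragments past the threshold, the 6 with the highest mean CPM, the most abundant of each class and, as none passed, the 2 higher and 2 lower with the smallest p. SeC 37-51, SeC 15-50 and SeC 40-55 fall outside it and were chosen after their values were seen.

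CPM divides counts by each library's total of tRNA-derived counts. Members were joined from the longest 5′ end fragment by exact overlaps of at least 14 nt. Tests across sequences, families and sums of family and class used the quasi-likelihood F-test of edgeR 4.0.16 (R 4.3.3; TMM scaling, filterByExpr, Benjamini-Hochberg adjustment, threshold 0.05), tested on simulated data, and SE were taken from the F statistic. The filter kept 6452 sequences with 96.3% of counts. A sequence shared by families counts in each. DESeq2 1.42.0 and limma 3.58.1 were alternatives. For shares and levels, exact permutation tests (two-sided, SciPy 1.17.1) were used. Deviations from the group means correlated between libraries of the same number at 0.81, 0.533 and 0.451 for numbers 1, 2 and 3. Correlations between different numbers were not computed. Deviations within a group cancel out, and both libraries numbered 1 stood apart, so the values for numbers 2 and 3 cannot show pairing. The replicate numbers were used as pairs and as a block by assumption. Counts are of reads, so intervals and floors cover counting error only.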

Additional observations from a re-analysis of the deposited data

How the results depend on the processing

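Across 28 results and 380 alternatives (other scalings, filters and tools, the replicate block, each library left out, replicates 2 and 3 alone), 26 turned direction. Replicates 2 and 3 alone was chosen after seeing the data, and the block with DESeq2 size factors was not planned either. Also unplanned were all alternatives for the tRNA-Ser ratio, the start shares, the whole-anticodon share and the 5′ end length. The same holds for the alternatives that count calls of tRNA-Ser and ALKBH8 families. Of the 380 alternatives, 120 were exact tests of at most 3 libraries a group, which cannot reach the threshold, and 50 were counts of calls, all 0. Of the 210 fits that test 1 feature, 193 kept direction and 17 turned, and 0 brought a result past the threshold. The summed tRNA-SeC log2 change stayed between -0.44 and -0.18, with a smallest adjusted p of 0.228, and was -0.36 with the replicate block. The block changed no call. As each library was left out, the log2 change of 5′ ends ran from -0.59 to 0.15, of 3′ ends from -1.21 to 1.99, of SeC 38-53 from -0.72 to 0.20, of SeC 37-52 from -1.59 to 0.55, of SeC 54-69 from -0.35 to 0.29 and of SeC 1-17 from -0.53 to 0.13. The difference between groups ran from -1.37 to 2.94 percentage points for the 5′ end share, from -2.12 to 8.12 for the 3′ end share, from -0.632 to 0.859 nt for the mean length and from -366 to 14.03 CPM for the summed level, which turned without normoxia 1. SeC 54-69, close to 0 throughout, was -0.0031 with DESeq2 size factors, -0.0099 with DESeq2, -0.0301 with voom, -0.0242 with replicates 2 and 3 alone and -0.0261 with the block and DESeq2 size factors. SeC 1-17 was 0.0311 with voom and 0.30 with replicates 2 and 3 alone. Sequences of at least 10 counts gave a mean length difference of -0.0477 nt. The cause of these turns was not tested. SeC 15-29 and SeC 36-52 have no value where 10 counts were required in 3 libraries. Depth limits the members: 214 of 308 held under 10 counts.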
